A study of Mus musculus with 6 samples.

Results

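The interferon response genes described here are 39 mouse genes, taken by symbol from a list of interferon receptors, transcription factors, RNA sensors, antiviral effectors and antigen processing genes. The rule that picks them uses symbols and no measured value, but the list was drawn up with earlier results of these data known, so its counts are descriptions and not independent evidence. Of the 39 genes, 37 had at least 1 array feature annotated with that symbol alone, out of 19937 genes with such a feature. The only feature of Isg15, the ubiquitin-like modifier, also carries another symbol, and no feature lists Ifi44, so neither was analysed here. A gene with several features was represented by the feature with the highest mean over all arrays.

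Type I interferon binds a receptor built of IFNAR1 and IFNAR2, whose kinases JAK1 and TYK2 phosphorylate STAT proteins, STAT2 among them. These join IRF9 in the complex ISGF3, which binds the interferon-stimulated response element (ISRE) of antiviral genes, while STAT dimers bind the gamma-activated site (GAS). Cytokines that act through the receptor subunit gp130, such as leukaemia inhibitory factor (LIF), mainly activate STAT3, which also binds GAS elements. Embryonic stem cells are known for a weak response to interferon and for transcribing some of these genes, the IFITM genes among them, without it.

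RNA came from mouse embryonic stem cells of strain C57Bl/6 grown with fetal bovine serum. In every group the cells stably carried GRgp-Y118F, a chimera joining the receptor for granulocyte colony-stimulating factor (GCSF) to gp130, in which a tyrosine of gp130 is replaced by phenylalanine. Untreated control cells, cells labelled as given GCSF and cells labelled LIF/PD had 2 arrays each. LIF/PD stands for LIF together with 1 µM PD0325901, an inhibitor of the ERK-activating kinase MEK. Treated cells were held without serum for 6 h and then treated for 1 h, but the labels do not say this of the control cells. They also do not say whether the line is a single clone, or whether replicates were cultured separately, so the p-values reflect the spread among these arrays alone, and that spread may be technical.

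The arrays correlated with r of 0.995 to 0.998 over tested features, across features within these samples, and their medians lay between 7.11 and 7.16. The control block, the features with identifiers below the first annotated gene, had a median of 6.84 in GCSF replicate 1 and 6.58 to 6.71 in the other arrays. Dusp6 and Spry4 are feedback inhibitors that ERK signalling keeps on. Dusp6 fell by 1.56 ± 0.04 (log2, SE, n = 2 arrays per group) in the arrays labelled GCSF and differed from control by 0.03 ± 0.04 in those labelled LIF/PD, and for Spry4 the differences were -1.83 ± 0.06 and 0.05 ± 0.06. This goes against the labels, under which the MEK inhibitor was in the LIF/PD samples. Groups are named by their labels throughout, and every direction below refers to the arrays so labelled, not to a treatment verified from the data.

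To show where the binding sites named above could lie, RefSeq promoters (build GRCm38.p6) were searched for the GAS letters TTCNNNGAA and the ISRE letters GAAANNGAAA on both strands, in the 250 bases before each annotated start. The promoter table held 31 of the 39 genes. Usp18 and Parp14 were not among them, so their promoters were not searched. The promoters below are those of Irf1 and Ifit1, which rose in the GCSF arrays and hold a match, of Ifit3, a relative of Ifit1, and of Bst2, which holds both motifs. They were chosen with the array values known. They lie at chr11:53769764-53770013 on the plus strand, chr19:34640639-34640888 on the plus strand, chr19:34583279-34583528 on the plus strand and chr8:71537473-71537722 on the minus strand. Capitals mark the motif matches.
Irf1: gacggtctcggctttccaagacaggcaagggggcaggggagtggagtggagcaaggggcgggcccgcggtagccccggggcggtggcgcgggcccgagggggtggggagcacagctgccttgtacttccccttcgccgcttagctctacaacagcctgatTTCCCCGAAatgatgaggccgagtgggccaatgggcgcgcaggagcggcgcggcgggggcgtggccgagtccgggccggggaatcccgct
Ifit1: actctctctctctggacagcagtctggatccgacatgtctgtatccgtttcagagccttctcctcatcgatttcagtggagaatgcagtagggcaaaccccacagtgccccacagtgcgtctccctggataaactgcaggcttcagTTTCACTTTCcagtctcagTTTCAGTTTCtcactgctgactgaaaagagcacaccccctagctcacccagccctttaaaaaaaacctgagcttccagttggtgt
Ifit3: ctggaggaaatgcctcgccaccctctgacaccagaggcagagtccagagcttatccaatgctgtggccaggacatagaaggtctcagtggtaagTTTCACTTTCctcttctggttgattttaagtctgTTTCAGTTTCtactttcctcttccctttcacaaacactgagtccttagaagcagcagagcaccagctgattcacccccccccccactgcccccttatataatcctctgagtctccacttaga
Bst2: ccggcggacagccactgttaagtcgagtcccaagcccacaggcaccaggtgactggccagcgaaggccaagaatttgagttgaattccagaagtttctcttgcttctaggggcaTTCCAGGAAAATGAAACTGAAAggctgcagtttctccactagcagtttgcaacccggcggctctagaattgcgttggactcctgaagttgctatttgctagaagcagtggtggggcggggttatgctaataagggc

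The Irf1 promoter holds the GAS match TTCCCCGAA, whose first base lies 90 bases before the start. The second annotated start of Irf1 and both starts of Irf9 have no match to either motif in their windows. Ifit1 and Ifit3 hold the same pair of ISRE matches, TTTCACTTTC and TTTCAGTTTC, beginning 104 and 85 bases before the start in Ifit1 and 156 and 122 bases before it in Ifit3. In Bst2 the GAS match TTCCAGGAA begins 136 bases before the start and runs into the first of 2 overlapping ISRE matches. Among the 31 genes, 8 (25.8%) had a GAS match and 8 (25.8%) an ISRE match at any start, beside 8.13% and 3.46% of all 27025 genes in the table. Of the 23 genes that were tested and not called in the GCSF arrays, 5 had a GAS match and 6 an ISRE match. Of the 3 genes called higher there and held in the table, 1 had a GAS match (Irf1) and 1 an ISRE match (Ifit1). These are matches of letters, not shown sites of binding.

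Most of these genes were transcribed above the level of silent genes. The yardstick was the 1208 features of olfactory and vomeronasal receptor genes, which stem cells do not use, with a median log2 intensity of 4.60 and a 95th percentile of 6.40. At or below that percentile were 3 genes: Mx1 (mean over 6 arrays 5.28) and Mx2 (5.23), which encode GTPases that block viruses, and Psmb8 (6.03), an immunoproteasome subunit. With the 99th percentile of the same features (7.31) as the yardstick, 11 genes lay near background. Tests were run on features with a mean of at least 6.70, the 40th percentile of the features outside the control block. This left 31 of the 37 genes, and Ifih1 (6.60), Dhx58 (6.70) and Ifit2 (6.51) joined the 3 above as not tested.

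**Figure D1:**
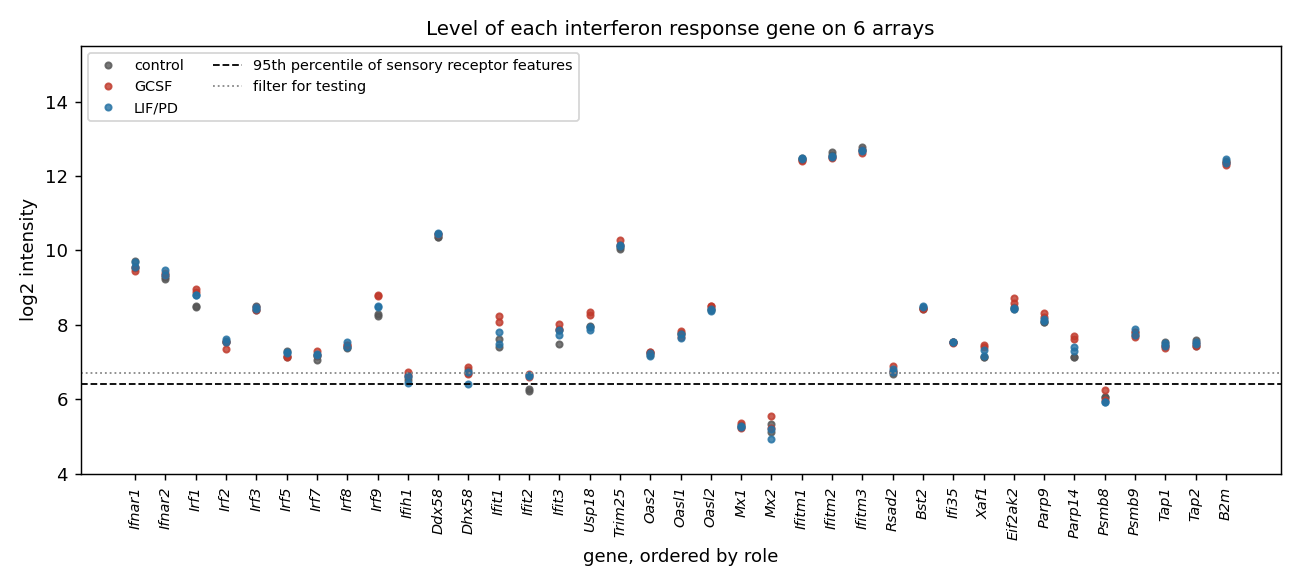
Log2 intensity (vertical axis) of each of the 37 genes on the 6 arrays, genes ordered by role along the horizontal axis and points coloured by group. The dashed line is the 95th percentile of the sensory receptor features (6.40) and the dotted line the filter for testing (6.70). Mx1, Mx2 and Psmb8 lie under the dashed line on average.

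Over the 31 tested genes, 5 were called higher in the GCSF arrays than in control by limma (adjusted p under 0.05 over all 16912 tested features) and 0 lower, namely Irf9, Parp14, Irf1, Ifit1 and Usp18. Of all tested features 0.804% were called higher and 0.367% lower in this comparison. In the LIF/PD arrays 0 of the 31 were called in either direction, beside 0.0591% of all features called higher and 0.00591% lower. At an unadjusted p under 0.05 there 5 genes (16.1% of 31) were higher and none lower, beside 6.59% of all features in either direction, and each of the 16 alternative settings called 0 as well. Between the treatments, Usp18 alone was called higher in the GCSF arrays than in the LIF/PD arrays and 0 genes lower, beside 0.443% and 0.402% of all features. The median log2 difference of the tested genes was 0.06 for GCSF minus control, 0.04 for LIF/PD minus control and -0.01 for GCSF minus LIF/PD, where all 12949 tested genes had 0.01, 0.02 and -0.01. Both comparisons with control use the same 2 control arrays.

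The arrays themselves separated more often than the test called. Both GCSF arrays lay above both control arrays for 17 of the 31 tested genes (54.8%) and below them for 5 (16.1%), where 23.7% and 18.2% of all tested features did so. Both LIF/PD arrays lay above control for 11 genes (35.5%) and below for 2 (6.45%), beside 24.0% and 14.4% of all features. GCSF arrays lay above LIF/PD arrays for 11 genes (35.5%) and below for 7 (22.6%), beside 19.1% and 22.4%.

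**Figure D2:**
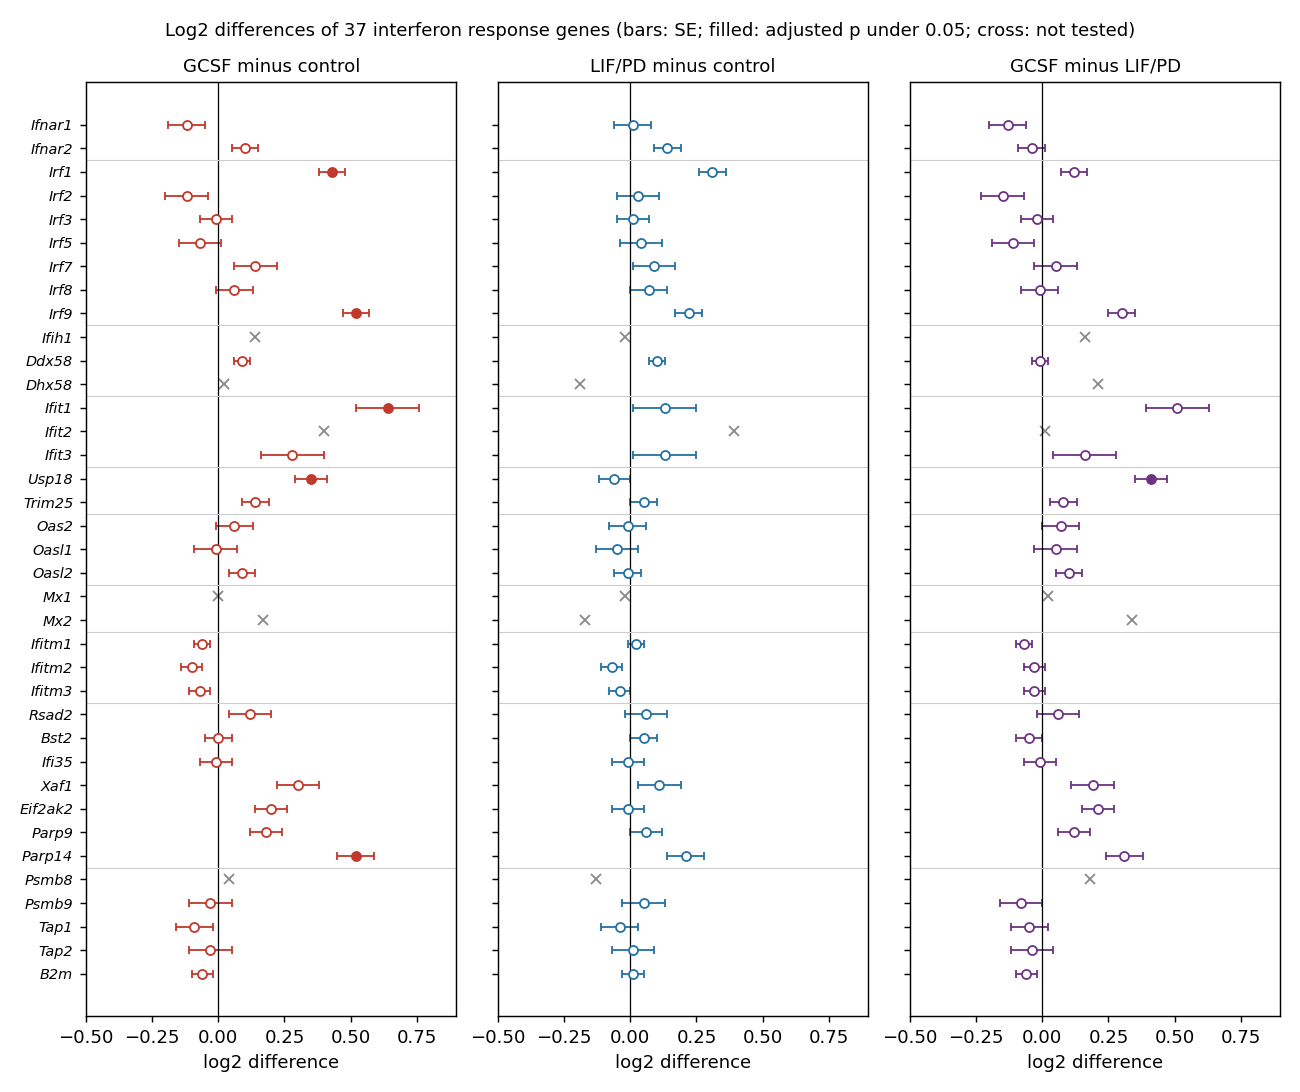
Log2 differences (horizontal axes) of the 37 genes (vertical axis, grouped by role) for GCSF minus control, LIF/PD minus control and GCSF minus LIF/PD. Points are differences of group means with SE bars from the limma fit (n = 2 arrays per group), filled where the adjusted p was under 0.05, and crosses are genes below the filter. In the left panel 5 genes are filled, in the middle panel 0 and in the right panel 1, Usp18.

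The receptor genes did not pass the test. Ifnar1 gave 9.71 and 9.54 in control, 9.55 and 9.46 in GCSF and 9.56 and 9.70 in LIF/PD, so that the groups overlapped except that GCSF lay below LIF/PD. Its difference from control was -0.12 ± 0.07 in the GCSF arrays (adjusted p = 0.561). Ifnar2 differed by 0.10 ± 0.05 (adjusted p = 0.512) and, in the LIF/PD arrays, by 0.14 ± 0.05 (adjusted p = 0.719).

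Among the 7 interferon regulatory factors, 2 rose in the GCSF arrays. Irf9, the DNA-binding partner of the STATs in ISGF3, gave 8.30 and 8.24 in control, 8.77 and 8.81 in GCSF and 8.52 and 8.47 in LIF/PD. The 3 groups did not overlap, and the LIF/PD arrays lay between the others. Its rise in the GCSF arrays was 1.44-fold (log2 difference 0.52 ± 0.05, 95% interval 0.40 to 0.64, adjusted p = 0.00220 with limma). In the LIF/PD arrays it differed from control by 0.22 ± 0.05 (adjusted p = 0.480), and the direct difference between the treatments was 0.30 ± 0.05 (adjusted p = 0.0526).

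Irf1, a transcription factor that is itself induced through a GAS element, gave 8.52 and 8.48 in control, 8.97 and 8.89 in GCSF and 8.81 and 8.81 in LIF/PD. Again no 2 groups overlapped. It rose 1.35-fold in the GCSF arrays (0.43 ± 0.05, adjusted p = 0.00545), differed by 0.31 ± 0.05 in the LIF/PD arrays (adjusted p = 0.182) and by 0.12 ± 0.05 between the treatments (adjusted p = 0.415). Its other feature gave 0.12 ± 0.08 in the GCSF arrays and -0.06 ± 0.08 in the LIF/PD arrays, and with both features averaged Irf1 did not pass (0.28, adjusted p = 0.0969).

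The other 5 factors did not pass in any comparison. Irf7, which amplifies interferon production, gave 7.17 and 7.06 in control, 7.19 and 7.31 in GCSF and 7.20 and 7.21 in LIF/PD, a difference of 0.14 ± 0.08 for GCSF (adjusted p = 0.527). Irf3, which starts interferon transcription after virus sensing, differed by -0.01 ± 0.06 in the GCSF arrays (95% interval -0.14 to 0.13) and by 0.01 ± 0.06 in the LIF/PD arrays. For Irf2, Irf5 and Irf8 the GCSF differences were -0.12 ± 0.08, -0.07 ± 0.08 and 0.06 ± 0.07.

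Of the 3 RNA helicase genes of the RIG-I family, Ddx58, which encodes RIG-I, was tested. It gave 10.35 and 10.37 in control, 10.45 and 10.44 in GCSF and 10.46 and 10.45 in LIF/PD, so that both treatments lay above control. The differences were 0.09 ± 0.03 (adjusted p = 0.369) and 0.10 ± 0.03 (adjusted p = 0.705). Ifih1, the gene of the sensor MDA5, and Dhx58, that of LGP2, lay below the filter, with GCSF differences of 0.14 and 0.02.

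The IFIT genes encode proteins that bind foreign RNA and block its translation. Ifit1 gave 7.62 and 7.41 in control, 8.23 and 8.08 in GCSF and 7.80 and 7.49 in LIF/PD, so that only the GCSF arrays stood apart. It rose 1.56-fold in the GCSF arrays (0.64 ± 0.12, 95% interval 0.37 to 0.91, adjusted p = 0.0449) and differed by 0.13 ± 0.12 in the LIF/PD arrays (adjusted p = 0.887). The call against control was lost in 9 of 15 alternative settings (adjusted p 0.00473 to 0.230). The difference between the treatments was 0.51 ± 0.12 (adjusted p = 0.116).

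Ifit3, with the same ISRE letters, gave 7.85 and 7.48 in control, 8.02 and 7.88 in GCSF and 7.73 and 7.86 in LIF/PD. The control arrays were 0.37 apart, and the difference of 0.28 ± 0.12 for GCSF did not pass (adjusted p = 0.385). Ifit2, below the filter, gave 6.21 and 6.28 in control, 6.69 and 6.60 in GCSF and 6.63 and 6.64 in LIF/PD. Both treatments lay above control, by 0.40 ± 0.08 and 0.39 ± 0.08 in a fit without the filter (adjusted p = 0.0986 and 0.487).

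**Figure D3:**
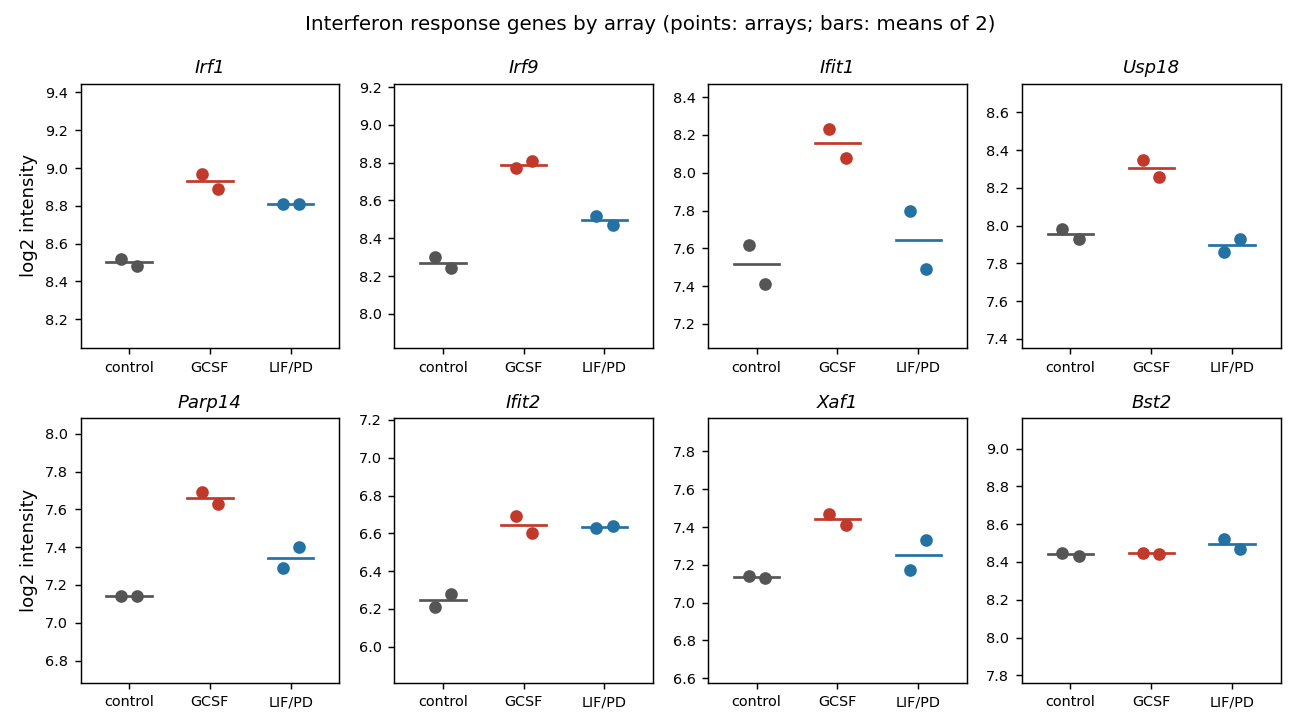
Log2 intensity (vertical axes, each spanning the same range of 1.4) of 8 genes in control, GCSF and LIF/PD arrays. Points are arrays and bars are means of 2 arrays. Irf1, Irf9, Ifit1, Usp18 and Parp14 were called higher in GCSF than in control, while Ifit2 was not tested and Xaf1 and Bst2 were not called.

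Usp18, the protease that removes ISG15 from proteins and damps signalling at IFNAR2, gave 7.98 and 7.93 in control, 8.35 and 8.26 in GCSF and 7.86 and 7.93 in LIF/PD. The GCSF arrays lay above all others, and the LIF/PD arrays lay below or level with the controls. Usp18 rose 1.27-fold against control (0.35 ± 0.06, adjusted p = 0.0449) and was 1.33-fold higher than in the LIF/PD arrays (0.41 ± 0.06, adjusted p = 0.0287). The call against control was lost in 13 of 16 alternative settings (adjusted p 0.0350 to 0.278), each array left out among them. In the LIF/PD arrays it differed from control by -0.06 ± 0.06 (adjusted p = 0.902). Trim25, the ubiquitin ligase that activates RIG-I, gave 0.14 ± 0.05 in the GCSF arrays (adjusted p = 0.343).

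Parp14, a mono-ADP-ribosyltransferase, gave 7.14 and 7.14 in control, 7.69 and 7.63 in GCSF and 7.29 and 7.40 in LIF/PD, with no overlap between groups. It rose 1.43-fold in the GCSF arrays (0.52 ± 0.07, adjusted p = 0.0104), and differed by 0.21 ± 0.07 in the LIF/PD arrays (adjusted p = 0.705) and by 0.31 ± 0.07 between the treatments (adjusted p = 0.114). Parp9, its relative and neighbour, gave 8.07 and 8.09 in control, 8.31 and 8.21 in GCSF and 8.11 and 8.17 in LIF/PD, a GCSF difference of 0.18 ± 0.06 that did not pass (adjusted p = 0.288).

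Further effectors were above control in both GCSF arrays without passing. Xaf1, a gene that promotes cell death, gave 7.14 and 7.13 in control and 7.47 and 7.41 in GCSF (0.30 ± 0.08, adjusted p = 0.148). Eif2ak2, which encodes the RNA-activated kinase PKR, gave 8.43 and 8.47 in control, 8.72 and 8.59 in GCSF and 8.45 and 8.43 in LIF/PD. Its GCSF difference was 0.20 ± 0.06 (adjusted p = 0.214), against -0.01 ± 0.06 for LIF/PD.

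Several classical antiviral effectors did not pass in any comparison. Bst2, the tether of budding virus, gave 8.45 and 8.43 in control and 8.45 and 8.44 in GCSF, a difference of 0.00 ± 0.05 with a 95% interval of -0.12 to 0.12. Ifi35 differed by -0.01 ± 0.06, Rsad2, which encodes viperin, by 0.12 ± 0.08, and Oas2, Oasl1 and Oasl2 of the oligoadenylate synthetase family by 0.06 ± 0.07, -0.01 ± 0.08 and 0.09 ± 0.05. In the LIF/PD arrays these 6 genes differed by -0.05 to 0.06. Mx1 and Mx2, both near background, differed by 0.00 and 0.17 in the GCSF arrays, with overlapping arrays.

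The IFITM genes, whose membrane proteins hinder virus entry, did not pass in any comparison. Ifitm1 gave 12.48 and 12.45 in control, 12.40 and 12.42 in GCSF and 12.49 and 12.47 in LIF/PD, with both GCSF arrays below all others. The GCSF differences of Ifitm1, Ifitm2 and Ifitm3 were -0.06 ± 0.03, -0.10 ± 0.04 and -0.07 ± 0.04. At the features representing these genes the 95% intervals reached at most 0.03 upwards, and at the other features of Ifitm1 and Ifitm2 at most 0.07. These genes are close relatives, and Ifitm1 and Ifitm2 are named by several features, so signal shared between them cannot be told apart.

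Antigen processing genes did not pass either. B2m, the light chain of MHC class I, gave 12.41 and 12.37 in control, 12.36 and 12.31 in GCSF and 12.45 and 12.35 in LIF/PD, a GCSF difference of -0.06 ± 0.04 (adjusted p = 0.658). The peptide transporter genes Tap1 and Tap2 differed by -0.09 ± 0.07 and -0.03 ± 0.08 and the immunoproteasome gene Psmb9 by -0.03 ± 0.08. All 4 had 95% intervals ending at or below 0.15 in the GCSF arrays. Psmb8, near background, differed by 0.04.

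The calls rest on 2 arrays per group, and some were lost when an array was left out. Those fits also have fewer total degrees of freedom (a median of 7.0 to 7.3, against 8.4). The part of each in the losses was not tested. Irf9 passed under all 16 alternative settings, each array left out in turn among them (adjusted p 0.00138 to 0.0318). Of the 5 calls against control, 1 remained without control replicate 2 (Irf9), 2 without control replicate 1 or without GCSF replicate 1 (Irf1 and Irf9), and 3 without GCSF replicate 2. With the control block median as a covariate only Irf9 passed, and Irf1, Ifit1, Usp18 and Parp14 had adjusted p of 0.0657, 0.148, 0.278 and 0.108. Of all tested features 0.585% were called in that fit, beside 1.17% in the main fit. The difference of Usp18 between treatments did not pass whichever array was left out (adjusted p 0.0566 to 0.226).

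A further list of 74 genes of the interferon pathway was drawn up, of which 61 had a feature of their own and 48 were tested. In the GCSF arrays 3 rose and 1 fell, in the LIF/PD arrays 1 rose and 0 fell, where the shares over all features are those given above (0.804% and 0.367%, then 0.0591% and 0.00591%). Both GCSF arrays lay above control for 20 of the 48 (41.7%) and below for 8 (16.7%), beside 23.7% and 18.2% of all features. Both LIF/PD arrays lay above control for 18 (37.5%) and below for 3 (6.25%), beside 24.0% and 14.4%. Stat2, the STAT particular to ISGF3, gave 8.46 and 8.49 in control, 8.86 and 8.89 in GCSF and 8.47 and 8.57 in LIF/PD. It rose 1.32-fold in the GCSF arrays (0.40 ± 0.06, adjusted p = 0.0127) and was 0.35 ± 0.06 above the LIF/PD arrays (adjusted p = 0.0319). Stat3 gave 9.67 and 9.58 in control, 10.27 and 10.20 in GCSF and 9.87 and 9.87 in LIF/PD, and was 0.37 ± 0.05 higher in GCSF than in LIF/PD (adjusted p = 0.0118). Socs3, the inhibitor of gp130 signalling, rose in both treatments at its brighter feature (7.77 and 7.73 in control, 10.79 and 10.98 in GCSF, 10.42 and 10.32 in LIF/PD). There it was 0.51 ± 0.07 higher in GCSF than in LIF/PD (adjusted p = 0.0123). Its other feature rose by 0.51 ± 0.08 in the GCSF arrays (adjusted p = 0.0219). In the LIF/PD arrays that feature differed by 0.39 ± 0.08 (adjusted p = 0.329), and between the treatments by 0.12 ± 0.08 (adjusted p = 0.630).

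The gene that fell was Tor3a, which encodes an interferon-induced torsin of the endoplasmic reticulum. It gave 9.56 and 9.50 in control, 9.16 and 9.20 in GCSF and 9.47 and 9.54 in LIF/PD, a fall against control of -0.35 ± 0.05 (adjusted p = 0.0102). The kinase genes Jak1, Jak2 and Tyk2 gave GCSF differences of 0.07 ± 0.04, 0.14 ± 0.08 and -0.03 ± 0.06, and the inhibitor gene Socs1 gave 0.05 ± 0.09. None of these passed.

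The interferon genes measured were not tested. Ifnb1 (mean 5.14), Ifnk (4.68) and Ifne (5.81) were near background, and Ifng (6.43) lay just above the yardstick of 6.40. Ifnb1 gave 5.10 and 5.16 in control, 5.07 and 5.10 in GCSF and 5.13 and 5.24 in LIF/PD. Among the genes above control in both GCSF arrays without passing were Rtp4 (0.45 ± 0.09, adjusted p = 0.0747), Gbp7 (0.39 ± 0.09, adjusted p = 0.115), Irgm1 (0.29 ± 0.09, adjusted p = 0.215) and Dtx3l (0.28 ± 0.06, adjusted p = 0.0633), named after their values were seen. Both LIF/PD arrays also lay above control for Rtp4 (0.25 ± 0.09), Gbp7 (0.25 ± 0.09) and Dtx3l (0.22 ± 0.06), again without passing. For Irgm1 they overlapped control (0.03 ± 0.09).

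**Figure D4:**
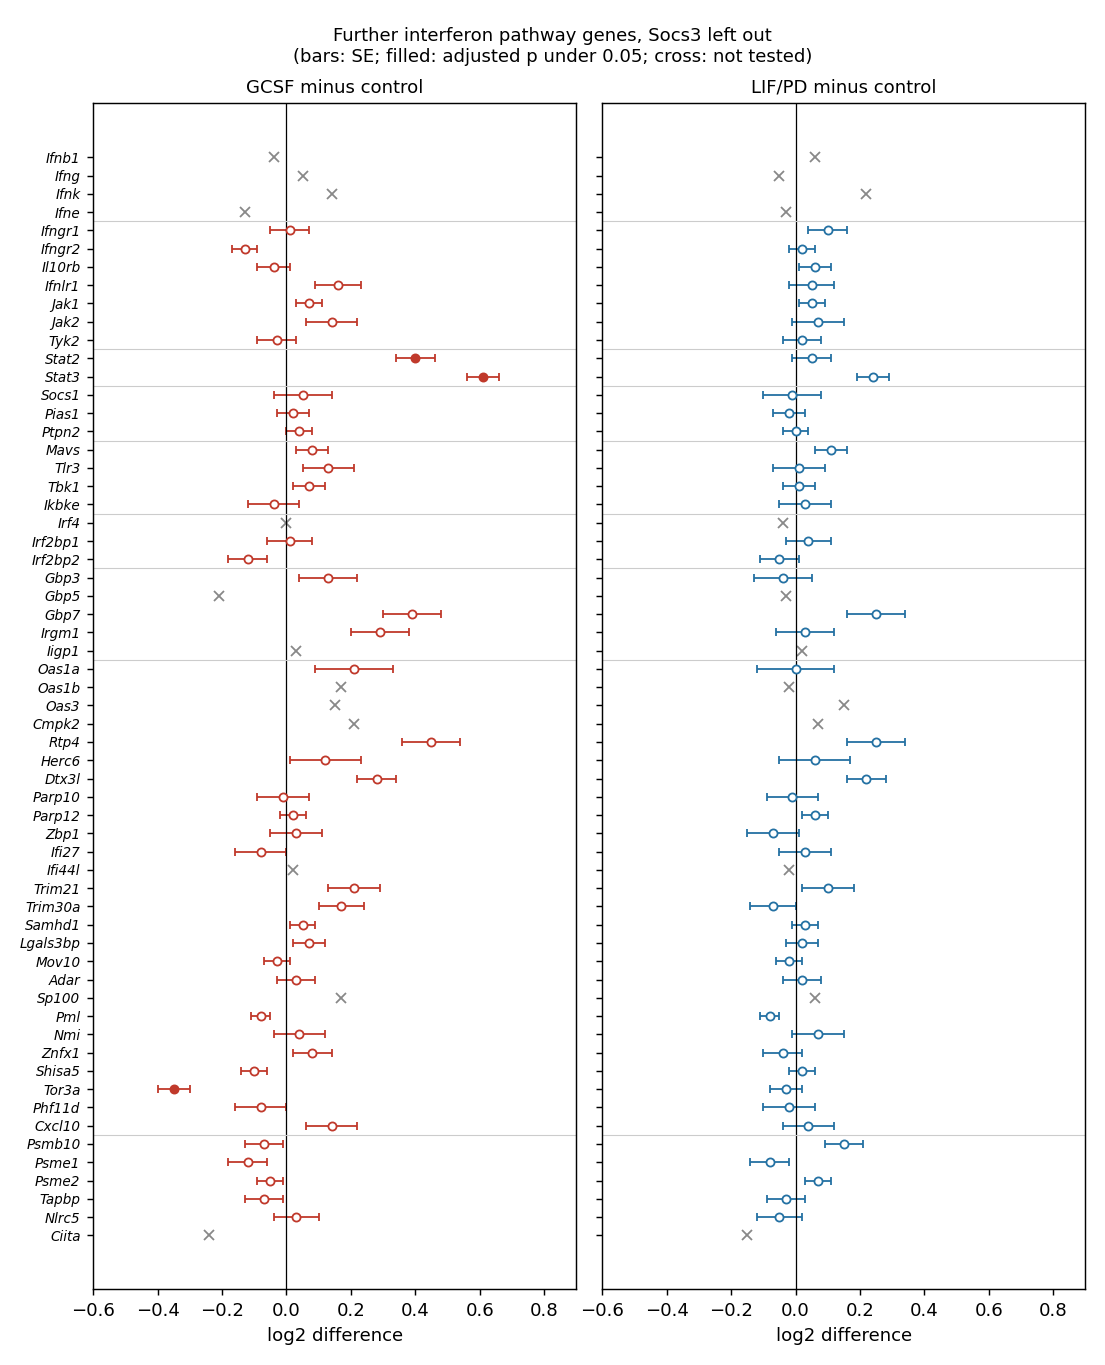
Log2 differences (horizontal axes) of 60 further interferon pathway genes (vertical axis, grouped by role, Socs3 left out for scale) for GCSF minus control and LIF/PD minus control. Bars are SE (n = 2 arrays per group), filled points passed the test and crosses were not tested. Stat2 and Stat3 are filled to the right and Tor3a to the left in the GCSF panel, and no point is filled in the LIF/PD panel.

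Markers of the labelled cell type were present. All 8 embryonic stem cell markers were above the yardstick, and their summed intensity was 42877 to 43885 in control, 44215 to 44444 in GCSF and 44152 to 44940 in LIF/PD. Tdgf1, a co-receptor gene of undifferentiated cells, rose by 0.30 ± 0.03 in the GCSF arrays (adjusted p = 0.00190). Utf1, a chromatin factor gene of the same cells, went the other way, by -0.16 ± 0.03 against control (adjusted p = 0.0527) and -0.23 ± 0.03 against LIF/PD, where it was called lower (adjusted p = 0.0137). The median of the 8 log2 values was 12.44 and 12.42 in control and 12.37 and 12.38 in GCSF, so that sum and median differed in direction. For 7 feeder fibroblast markers the sum was 6752 to 6853 in control, 6903 to 6910 in GCSF and 6743 to 6752 in LIF/PD. Of these Col3a1 rose by 0.29 ± 0.05 in the GCSF arrays (adjusted p = 0.0410), Thy1 differed by -0.10 ± 0.04 (adjusted p = 0.383), the other 4 tested by -0.04 to 0.06, and Lum was near background. Their median was 9.62 and 9.65 in control and 9.58 and 9.60 in GCSF, again opposite to the sum. For 7 blood and macrophage markers the sum was 5964 to 6095 in control, 5567 to 5691 in GCSF and 6188 to 6190 in LIF/PD. None of these 7 was called in any comparison, and none was near background by the 95th percentile of the sensory receptor features. By the 99th percentile (7.31), Ptprc, Cd14 (7.23) and Itgam (7.25) were. All 7 GCSF differences from control were negative, from -0.20 to -0.01. The means of these 7 markers over all arrays ran from 7.07 for Ptprc, which marks white blood cells, to 11.62 for Lyz2. The part of these shifts in the differences above was not tested, and in such samples fewer cells of a type and less RNA per cell cannot be told apart.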

How the data were processed

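Biotin-labelled total RNA, taken up in TRIzol, was measured on single-colour arrays, per the labels. The deposited table gives 34760 features on 6 arrays, with values of 2.29 to 14.50. They were read as log2 intensity from that range, since the deposited table states neither log base nor processing, and background correction, summarization and normalization by the authors are not given in the sources used here. The platform annotation gave 1 symbol to 21640 features and several to 1321, from which no gene was named, and 5226 outside the control block had none. The 6573 features of the control block were left out.

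Group means were fitted to all 6 arrays with limma 3.58.1 in R 4.3.3, with an intensity trend in the variances (3 residual and a median of 8.4 total degrees of freedom). P-values are two-sided and Benjamini-Hochberg adjusted over 16912 features with a mean at or above the 40th percentile, and errors are SE of the log2 difference. The fit was tested on simulated data. With arrays there is no read depth, and 2 arrays per group limit the precision. The rule for naming genes was every list gene, further pathway genes called in any comparison, and Dusp6, Spry4 and Socs3 as label checks, and genes outside it are marked as such or serve as background. The list and the further genes were chosen with earlier results of these data known. Alternatives were a block on replicate number, fits to only the arrays compared, and changes to the filter, normalization, the variance model, features per gene, a control block covariate and each array left out. Promoters are from RefSeq, GRCm38.p6.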

Additional observations from a re-analysis of the deposited data

How the results depend on the processing

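In the GCSF arrays against control, 5 list genes were called, beside 1.17% of all tested features in either direction. The count was 3 without the filter, with a filter at the 60th percentile, with quantile normalization, with median centring and without an intensity trend, and in these settings, the 60th percentile aside, Ifit1 and Usp18 were the genes lost. The shares of all tested features called in these settings were 0.596%, 1.63%, 0.970%, 1.02% and 0.739%, in the same order. The count of list genes was 1 with the control block median as a covariate, beside 0.585% of all features. It ran from 1 to 4 with an array left out. At the 60th percentile fewer genes were tested (16). In the covariate fit, and with an array left out, fewer residual degrees of freedom remain. Fewer of all features were called there too. Whether the fewer degrees of freedom account for the drops there was not tested. The cause of the other drops was not tested. For the LIF/PD arrays against control the count was 0 throughout, beside at most 0.0887% of all tested features. Between the treatments, where 1 gene was called, the count was 2 with the 60th percentile filter, with robust variances and with averaged features (Irf9 in addition), 0 with only the 2 groups compared, 0 with the covariate and 0 to 0 with an array left out. Of all tested features, 0.846% were called between the treatments in the main fit. The share was 1.22% with the 60th percentile filter, 0.970% with robust variances and 1.03% with averaged features. It was 0.485% with only the 2 groups compared and 0.154% with the covariate. No called gene changed sign in any setting. Genes near background numbered 3, or 11 with the 99th percentile of the sensory receptors and 6 with the 40th percentile of features outside the control block.

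Replicate numbers were not taken to pair the arrays, since the labels do not say that they mark a shared culture or day. The deviations of same-numbered arrays correlated at 0.01 to 0.10. With the replicate block 4 list genes were called in the GCSF arrays against control (Usp18 gave an adjusted p of 0.0626), 0 in the LIF/PD arrays, and 2 between the treatments (Ifit1 in addition, adjusted p = 0.0210). Of all tested features 1.15%, 0.0532% and 0.976% were called with that block.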

Other observations

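All runs of interferon pathway genes that adjoin each other on RefSeq's GRCm38.p6 assembly, with no other protein-coding gene between them and at least 1 measured list gene, gave the following log2 differences between the GCSF and control arrays, as values with no further test. In the run Parp14, Dtx3l and Parp9 on chromosome 16 they were 0.52 ± 0.07, 0.28 ± 0.06 and 0.18 ± 0.06. All 3 genes had both GCSF arrays above both control arrays, as 23.7% of all tested features did. The same held for every gene of the runs Rsad2 and Cmpk2, Ifit2 and Ifit3, and Oas2 and Oas3. In the run Ifnar2, Il10rb, Ifnar1 and Ifngr2, also on chromosome 16, they were 0.10 ± 0.05, -0.04 ± 0.05, -0.12 ± 0.07 and -0.13 ± 0.04, of which Ifngr2, the receptor chain for interferon gamma, had adjusted p = 0.220. In the run Psmb9, Tap1, Psmb8 and Tap2 on chromosome 17 the differences were -0.03, -0.09, 0.04 and -0.03. For Rsad2 and Cmpk2 on chromosome 12 they were 0.12 and 0.21, and Cmpk2, below the filter, gave 6.56 and 6.58 in control and 6.79 and 6.77 in GCSF. For Ifit2 and Ifit3 on chromosome 19 the differences were 0.40 and 0.28, for Oasl2 and Oasl1 on chromosome 5 they were 0.09 and -0.01, and for Oas2 and Oas3, also on chromosome 5, they were 0.06 and 0.15. For Ifitm2, Ifitm1 and Ifitm3 on chromosome 7 they were -0.10, -0.06 and -0.07.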
